A study of Mus musculus with 7 samples.

Results

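Type 2 dendritic cells of a mouse malignant peripheral nerve sheath tumor (MPNST) were described here. They are conventional dendritic cells, picked here by Flt3, the C-type lectin Cd209a or both, and by major histocompatibility complex (MHC) class II. Flt3 is the receptor for the growth factor that sustains dendritic cells. A cell was counted as a member when it had at least 500 genes and at most 10% mitochondrial unique molecular identifiers (UMIs), at least 2 UMIs of Flt3 and Cd209a together, and at least 10 CP10K of H2-Aa, H2-Ab1 and H2-Eb1 together. CP10K is the UMIs of a gene per 10000 UMIs of the cell or sum of cells. Members also had 0 UMIs of Xcr1, Clec9a, Ccr7, Siglech and the Cd3 genes, under 10 CP10K of the 3 C1q genes, and at most 1 UMI of the tumor genes Tafa1, Unc5c and Col11a1. The rule found 76 members among 33136 retained cells, of 39537 cells deposited.

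All tumors were grown from 1 line, JW23.3 MPNST cells with Nf1 and Trp53 mutated. In each case 5000000 cells were placed under the skin of a female C57/B6 mouse of 5 to 6 weeks with an intact immune system. Mice were randomized on day 7, 4 tumors then received 5 daily fractions of 2 Gy at the tumor with lead shielding of the body, 3 control tumors received none, and all were harvested on day 21. Tumors were dissociated with papain and 10000 cells of each were loaded on a 3′ droplet assay, so dendritic cells reached the data unsorted, as 1 library per tumor.

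As background, dendritic cells take up antigen, load its peptides onto MHC molecules and present them to T cells. Type 1 cells, marked by Xcr1 and Clec9a, are known for presenting antigen to CD8+ T cells, and type 2 cells, which depend on the factor Irf4, for presenting antigen on class II to CD4+ T cells. When a dendritic cell matures it gains Ccr7, the receptor that guides it to the lymph node. The rule kept only cells with 0 UMIs of Ccr7, which does not exclude every mature cell.

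The 7 libraries held 646559899 UMIs. They parted, though not sharply, into 2 technical sets by depth, genes per cell, mitochondrial share, cell number and stress transcripts. Set 1 held irradiated 1, control 2 and control 3, and set 2 held irradiated 2, 3 and 4 and control 1. Within-set variation took 0.524 of the total, against 0.618 for the next of 63 splits. A barcode found in more than 1 library was carried by 0.961% of deposited cells, among them 2 members, and no barcode was shared between members. The doublet caller Scrublet marked no member, and no member was among the highest 6% of scores in its library, but it had called only 2 of 7308 cells in irradiated 1 and 4 of 3780 in irradiated 3 and so had not worked there.

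Members numbered 24, 4, 5 and 12 in irradiated tumors 1 to 4 and 9, 8 and 14 in control tumors 1 to 3. A member held 1646 to 32336 UMIs with a median of 8450 UMIs, and its mitochondrial share was at most 7.88%. Summed over its members, each tumor gave between 48470 UMIs (control 2) and 201434 UMIs (irradiated 1). Xist, which the female host expresses, was found in 74 of the 76 members.

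At the edges of the rule, 16 members had exactly 2 UMIs of Flt3 and Cd209a and 12 had 3, while 39 cells met every other criterion with 1 UMI. Class II set almost no edge. Members had 43.8 to 359 CP10K of the 3 class II genes with a median of 207 CP10K, and only 1 cell was kept out by that limit. C1q kept out 6 cells, none of them between 10 and 20 CP10K, while 3 members lay between 5 and 10 CP10K and 39 had none. The tumor genes kept out 8 cells, and 10 members had 1 such UMI.

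Members came in by different genes. UMIs of both Flt3 and Cd209a were found in 31 cells, of Cd209a alone in 25 and of Flt3 alone in 20. The irradiated tumors held 12, 4, 3 and 3 cells with both genes and the controls 3 each.

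Type 2 dendritic cells took 0.381%, 0.173%, 0.164% and 0.409% of the retained cells of irradiated tumors 1 to 4, and 0.178%, 0.116% and 0.213% in controls 1 to 3. Irradiated tumors 1 and 4 lay above all controls, while irradiated 2 and 3 lay between controls 1 and 2. The mean was 0.282% ± 0.131 (SD, n = 4) with irradiation and 0.169% ± 0.0490 (SD, n = 3) without. The difference of 0.113 percentage points did not pass a two-sided exact permutation test over 35 splits of the tumors (p = 0.314, adjusted p = 0.5 over 5 cell classes), whose smallest possible p is 0.0286. Set 1 alone gave a difference of 0.216 points, and set 2 gave 0.0708 points. With so few cells a share was loosely fixed, and the 95% Wilson interval of irradiated 2 ran from 0.0674% to 0.444%, for counting error only.

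The comparison classes were cut by rules of the same kind and held 27 type 1 dendritic cells, 76 mature (Ccr7+) dendritic cells, 10202 C1q macrophages and 365 Ly6c2 monocytes. Among the 3 dendritic classes, type 2 cells made up 53.3%, 30.8%, 45.5% and 37.5% in irradiated tumors 1 to 4 and 47.4%, 40.0% and 35.9% in the controls, ranges that overlapped. The means were 41.8% ± 9.77 (SD, n = 4) and 41.1% ± 5.81 (SD, n = 3), and the exact permutation test over 35 splits gave p = 0.914. The irradiated-minus-control difference was 15.4 percentage points in set 1 and fell below 0 in set 2, at -9.46 points.

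**Figure D1:**
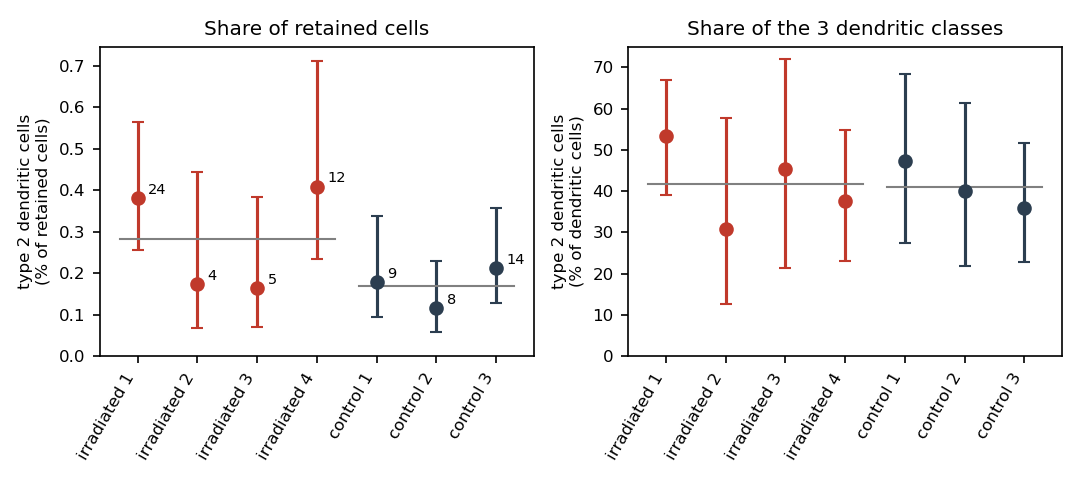
Type 2 dendritic cells in each tumor, as a percentage of retained cells (left, number of cells beside each point) and of type 1, type 2 and mature dendritic cells together (right). Red points are irradiated and dark points control tumors, bars are 95% Wilson intervals and gray lines group means; irradiated 1 and 4 lie above the controls on the left, and the groups overlap on both sides.

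Most members carried markers of their label that the rule did not use. Members with Flt3 alone had several of these less often, as given below. Sirpa, an inhibitory receptor of type 2 cells, was found in 57 of 76 members, and Zbtb46, a transcription factor of conventional dendritic cells, in 48. The integrin genes Itgax and Itgam were found in 48 and 38, the lectins Mgl2 and Clec10a in 37 and 25, the cytokine gene Ltb in 30 and Irf4 in 14. Of these 8 genes a member had a median of 4, 60 members had at least 3, and 2 members had none. With Flt3, Cd209a and H2-Ab1 of the rule added, they summed to 72.0 to 82.2 CP10K in irradiated and 49.9 to 75.0 CP10K in control tumors. The mean was 49.4 CP10K in type 1 cells, 43.3 in mature cells, 13.7 in Ly6c2 monocytes and 14.7 in C1q macrophages. The 8 genes alone are not compared with these classes here.

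Free RNA was read from cells with at least 5 UMIs of the tumor genes, on the assumption that they lack these markers. Those cells were deeper, with a median of 24698.5 UMIs against 8450 UMIs in members, so all cells were thinned to 3000 UMIs, which 73 of 76 members reached. Mgl2 was then found in 45.2% of members and 0.113% of tumor-gene cells, Itgax in 31.5% and 0.0467%, and Irf4 in 11.0% and 0.0200%. Zbtb46 and Sirpa separated the cells less, at 37.0% against 6.70% and 42.5% against 8.30%.

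Markers of other cell types were counted over their whole lists. None of the 9 T or NK cell markers had a UMI in any member, the Cd3 genes by rule and Trac, Cd4, Cd8a, Nkg7, Ncr1 and Klrb1c without it. A count of 0 of 76 cells allows a share of cells with a UMI of up to 3.95%. All 5 mast cell or basophil markers were at 0. Of the B cell list only Ebf1 was found (6 members), and of the granulocyte list Csf3r (4 members) and Mmp9 (5 members), with S100a8 and S100a9 at 0.

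Macrophage markers were present in part. Adgre1 was found in 2 members, Mertk in none, and Ms4a7 and Trem2 in 4 each, whereas Csf1r was found in 36, Mrc1 in 25 and Fcgr1 in 22. The summed level of the 13 macrophage genes was 3.91 to 8.05 CP10K in the irradiated and 5.78 to 9.30 CP10K in the control tumors, against a mean of 312 CP10K in C1q macrophages. Of the monocyte list, Ms4a4c (51 members) and Ccr2 (35) were common, and Ly6c2 (9) and Chil3 (1) were rare.

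Type 1 markers outside the rule were also shared. Wdfy4, needed for cross-presentation, was found in 59 members and Itgae in 23, while Cadm1 was found in 1. Irf8, the factor of type 1 cells, averaged 0.797 CP10K in members and 13.3 CP10K in type 1 cells. Of the mature list Ccr7 was at 0 by rule, Fscn1 was found in 8 members, Ccl22 in 3 and Il12b in 1. Control 2 stood apart there, with 10.7 CP10K of the mature list summed against 0.961 to 3.18 CP10K in the other tumors. Its highest member was at 102 CP10K of this list, and the highest of irradiated 1 was at 90.3 CP10K. The median members of these tumors were at 4.72 and 0 CP10K, and the mature class averaged 62.4 CP10K.

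The genes that led the members over all other retained cells were taken as the 15 genes outside the rule with the largest ratio of mean CP10K among those found in at least 25% of members. These ratios describe cells chosen by expression and were not tested. Ffar2, a receptor for short-chain fatty acids, came first at a ratio of 289, with a mean of 0.715 CP10K and 23 members. Il1r2, the decoy receptor that binds interleukin 1 without signaling, averaged 19.6 CP10K ± 7.99 (SD over 7 tumors) and was found in 64 members. It averaged 9.53 CP10K in mature and 1.33 CP10K in type 1 dendritic cells, and 0.210 CP10K in C1q macrophages.

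Other leading genes formed small families. Klri1, Klrb1b and Klrd1 encode killer cell lectin-like receptors best known from NK cells, and were found in 27, 48 and 58 members, in which the NK markers Ncr1 and Nkg7 were at 0. H2-Oa and H2-DMb2, whose products edit the peptides on class II, were found in 44 and 59 members. Mmp12, an elastase, was uneven. It was found in 19 members, and 163 of the 188 UMIs in irradiated 2 came from 1 cell.

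Some of the 15 were shared with the other dendritic classes. Htr7, a serotonin receptor, averaged 4.03 CP10K in type 2, 3.37 in type 1 and 3.47 in mature cells. Adam23 and Kynu, the kynureninase gene, were higher on average in mature cells (3.36 and 1.80 CP10K) than in members (1.98 and 1.06 CP10K). Mgl2, Scel, Mmp12 and Dcstamp, a gene of cell fusion, were at 0.875 CP10K or less on average in the 4 compared classes, against 0.770 to 5.35 CP10K in members.

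**Figure D2:**
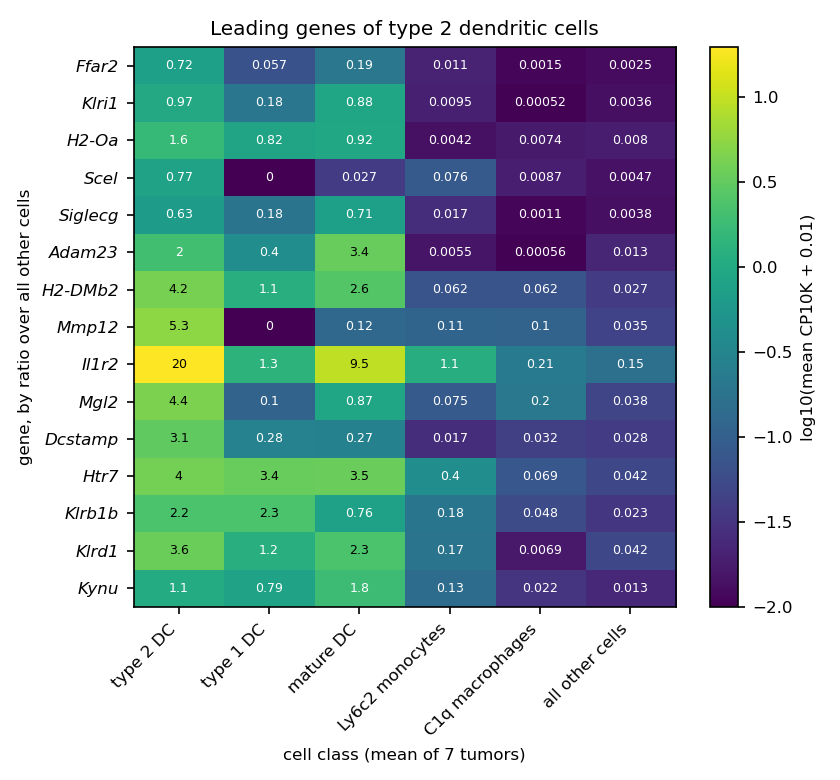
Mean CP10K (numbers in the cells, color on a log10 scale after adding 0.01) of the 15 leading genes in type 2, type 1 and mature dendritic cells (DC), Ly6c2 monocytes, C1q macrophages and all other retained cells, each a mean over 7 tumors. Il1r2 averages 19.6 CP10K in members and 9.53 CP10K in mature cells, and Htr7 ranges from 3.37 to 4.03 CP10K over the 3 dendritic classes.

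Class II presentation is the task type 2 cells are known for. Cd74, the invariant chain that escorts class II to the endosome, was found in all 76 members, at 196, 185, 211 and 228 CP10K in irradiated tumors 1 to 4 and 222, 156 and 174 CP10K in controls 1 to 3. The groups overlapped. The mean was 169 CP10K in type 1 cells, 150 in mature cells and 29.7 in C1q macrophages. Ciita, the master regulator of class II genes, was found in 47 members and averaged 1.91 CP10K, against 0.0713 CP10K in C1q macrophages. The rule genes are given as levels only, and H2-Aa ran from 77.0 to 89.9 CP10K over the 7 tumors.

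Promoter sequences of class II genes are shown because class II marks the members and 2 of these genes lie outside the rule. The windows run from 250 bases before to 50 after the gene start in RefSeq (GRCm38.p6), printed 5′ to 3′ in the direction of the gene. Capitals mark GATTGG or its reverse complement, the inverted CCAAT core of the Y box of class II promoters. H2-Eb1 (chr17:34305617-34305916, + strand) has 2 matches, which begin at -60 and -35 from the start. H2-Ob (chr17:34238655-34238954, + strand) has 1 at -58, and H2-DMb2 (chr17:34144999-34145298, + strand) has 1 at -91.
H2-Eb1: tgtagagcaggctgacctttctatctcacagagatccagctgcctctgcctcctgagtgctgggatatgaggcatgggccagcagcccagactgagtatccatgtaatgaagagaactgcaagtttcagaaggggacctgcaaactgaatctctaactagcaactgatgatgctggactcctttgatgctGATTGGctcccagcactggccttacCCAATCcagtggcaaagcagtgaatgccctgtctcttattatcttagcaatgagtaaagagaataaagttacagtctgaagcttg
H2-Ob: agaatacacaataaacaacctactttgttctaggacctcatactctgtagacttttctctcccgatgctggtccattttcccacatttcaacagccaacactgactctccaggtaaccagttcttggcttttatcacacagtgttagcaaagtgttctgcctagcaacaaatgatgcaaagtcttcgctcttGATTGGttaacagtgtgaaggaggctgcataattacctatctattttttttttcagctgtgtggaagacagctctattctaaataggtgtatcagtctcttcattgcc
H2-DMb2: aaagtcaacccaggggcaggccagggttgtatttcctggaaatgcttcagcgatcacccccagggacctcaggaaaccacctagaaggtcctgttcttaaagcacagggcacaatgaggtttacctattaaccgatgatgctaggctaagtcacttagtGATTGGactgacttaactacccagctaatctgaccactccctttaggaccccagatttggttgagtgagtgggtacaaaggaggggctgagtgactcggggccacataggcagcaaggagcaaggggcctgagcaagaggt

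On either strand, GATTGG was found in 7 of 12 windows, 1 each for 7 of the 10 class II list genes matched by symbol, and in 16.1% of all 32851 windows of the same length. H2-Ab1, Ciita and Cd74 were not matched. A match is a run of letters and says nothing of binding in these cells. H2-DMb2 has a close copy, H2-DMb1, and the counting could split reads between them.

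Costimulation and cytokines followed. Cd86, the ligand of CD28 on T cells, was found in 66 members, at 7.45, 9.57, 15.5 and 12.4 CP10K in irradiated tumors 1 to 4 and 17.0, 14.4 and 21.1 CP10K in the controls, with irradiated 3 above control 2. Cd80, the other such ligand, was found in 53, and Cd274, which encodes PD-L1, in 35. Il1b was found in 64 members at 17.4 to 33.5 CP10K over the 7 tumors, with a mean of 22.0 CP10K against 2.14 CP10K in type 1 and 12.9 CP10K in mature cells. Il6, Il10, Il12a, Il23a and Il27 were at 0 in every member.

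The way of entry went with other genes. Of the 20 cells with Flt3 alone, 15% had Mgl2 and 15% Itgam, against 61.3% and 64.5% of cells with both genes and 60% each of cells with Cd209a alone. Mrc1, the mannose receptor, was found in 5.00% of Flt3-only cells and in 41.9% and 44.0% of the other 2 sets. Batf3, a factor of type 1 cells, was found in 45.0% of Flt3-only cells, 6.45% of cells with both and 4.00% of Cd209a-only cells. The chemokine gene Ccl5 ran the same way, at 45.0%, 9.68% and 4.00%.

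Tbx21, a factor of type 1 immune responses, was found in 30% of Flt3-only cells, 6.45% of cells with both and 8% of Cd209a-only cells. Sirpa, Zbtb46 and Itgax were found in 65%, 60% and 65% of the Flt3-only cells. Their median depth was 7037.5 UMIs, against 10521 UMIs with both genes and 8006 UMIs with Cd209a alone, and the part of depth in these shares was not tested. Cells of 1 tumor share their source, so the shares are a description. Mrc1 and Mgl2 were found together in 19 members, Mrc1 alone in 6 and Mgl2 alone in 18.

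**Figure D3:**
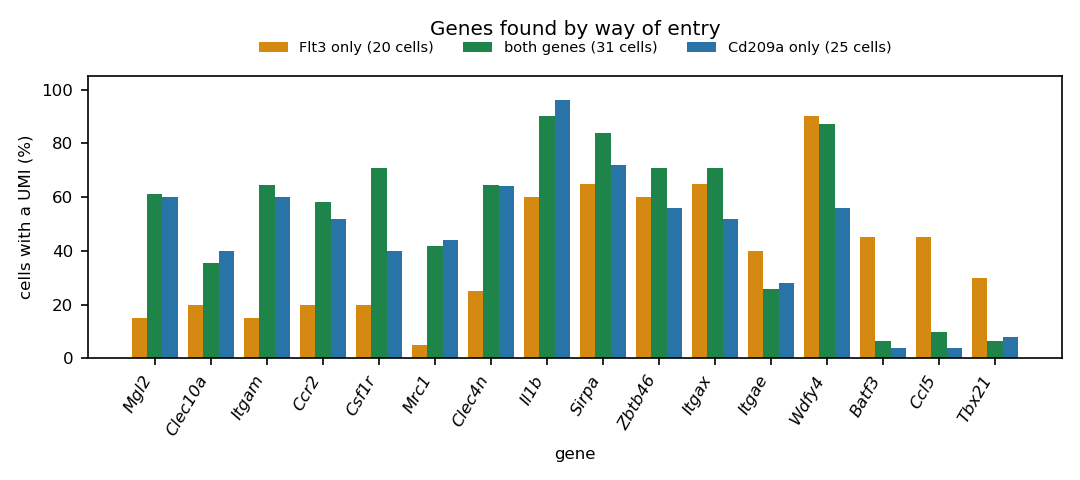
Percentage of member cells with at least 1 UMI of each gene, for the 20 cells that entered by Flt3 alone (orange), the 31 with both genes (green) and the 25 by Cd209a alone (blue). Mgl2, Itgam and Mrc1 are least frequent, and Batf3, Ccl5 and Tbx21 most frequent, in the cells with Flt3 alone.

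Mki67 or Top2a, genes of dividing cells, had at least 1 UMI in 18 of the 76 members, which by itself does not mark a cell as dividing. Thinned to 3000 UMIs, Mki67 was found in 9.59% of members, 7.11% of tumor-gene cells and 6.56% of C1q macrophages. Top2a was found in 11.0%, 13.6% and 9.02%, in the same order. Tumor cells and macrophages can express these genes themselves, so their shares do not measure free RNA. The part of free RNA in the members was not tested. A cell of irradiated 2 held 24 of the 54 Mki67 UMIs and 41 of the 81 Top2a UMIs of all members. The 20 cell cycle genes summed to 11.4, 28.6, 8.34 and 2.12 CP10K in irradiated tumors 1 to 4 and 11.4, 4.54 and 0.827 CP10K in the controls, so that irradiated 4 lay below controls 1 and 2.

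Irradiated and control tumors were compared on counts summed over the members of each tumor with edgeR, with p-values adjusted over all genes tested. The filter on low counts needed only as many tumors as the smaller group holds, so a gene could enter a fit through 1 group alone. Only irradiated 1, irradiated 4 and control 3 had at least 10 members, the minimum set for this fit, which left 1 residual degree of freedom and a control group of 1 tumor. Its calls set 2 irradiated tumors against 1 control tumor and rest on that control. With 1 control tumor the spread among controls is not measured, so these calls cannot show an effect of irradiation. In these 3 tumors 10 of 3971 genes passed the threshold (percent called 0.252), and all 10 were lower with irradiation. A further fit without that minimum, added after the data were seen, took in all 7 tumors, and 1 of 2025 genes passed (percent called 0.0494), also lower. At an unadjusted p under 0.05 there were 310 and 89 genes.

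Ptgs2, which encodes the prostaglandin-producing enzyme cyclooxygenase 2, was the gene that passed over all 7 tumors. It lies on chromosome 1 from 150100031 to 150108234 (RefSeq, GRCm38.p6, the assembly behind the files' mm10). It was at 0.149, 0.233, 0.163 and 0.279 CP10K in irradiated tumors 1 to 4 and 2.51, 1.86 and 1.45 CP10K in controls 1 to 3. Every irradiated tumor lay below every control, in both technical sets. Only the controls reached the level that the filter on low counts asks for. Ptgs2 thus entered the test through the group where it was high. The log2 fold change was -3.15 (SE 0.50, adjusted p = 0.0313), and -3.31 (adjusted p = 0.0484) after adjusting for technical set.

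The Ptgs2 counts were small and uneven. UMIs were found in 5 of 45 irradiated and 12 of 31 control members. In control 1, 27 of its 34 UMIs came from 1 cell, without which the tumor stood at 0.558 CP10K, still above the irradiated range, but the gene then no longer passed the filter on low counts and had no test. Leaving out 1 tumor at a time kept the fold change between -3.38 and -2.89 but the call held only without irradiated 2 (adjusted p = 0.0324). Without each of the other 6 tumors adjusted p was 0.0514 to 0.719.

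The chemokine genes Cxcl10 and Cxcl2 had the largest fold changes of the genes past the threshold in the 3 tumors. Both entered that fit through control 3 alone, the only one of its tumors in which they reached the filter on low counts. Cxcl10, an interferon-induced attractant of T cells, was at 0.0496 and 0.0559 CP10K in irradiated 1 and 4. It was at 5.89 CP10K in control 3 (log2 fold change -6.57). Of the 57 Cxcl10 UMIs of control 3, 51 came from 1 cell. Without that cell the tumor stood at 0.679 CP10K and Cxcl10 no longer passed the filter on low counts. The tumors outside the fit were at 0.467 and 0 CP10K (irradiated 2 and 3) and 0.148 and 3.71 CP10K (controls 1 and 2), so over 7 tumors the groups overlapped.

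Cxcl2, an attractant of neutrophils, was at 0.397 and 0.112 CP10K in irradiated 1 and 4. It was at 6.72 CP10K in control 3 (log2 fold change -4.61). Another cell of control 3 held 51 of its 65 UMIs. Control 2 had none, and irradiated 2 had 2.33 CP10K, so this order did not extend to the other tumors either.

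The other 8 genes past the threshold had log2 fold changes of -2.67 to -1.65 in the 3 tumors. None of them passed over all 7 tumors (adjusted p 0.962 to 0.978), where the values were -0.28 for Antxr2, -0.31 for Arhgap24, -0.62 for Dgat1, -0.68 for Dst, -0.74 for Jak1, -0.77 for Gfpt1, -1.01 for Xylt1 and -1.36 for Apoe. They were Dgat1 (triglyceride synthesis), Xylt1 (proteoglycan synthesis), Antxr2 (a matrix and toxin receptor), Apoe (lipid transport), Gfpt1 (hexosamine synthesis), Dst (a cytoskeletal linker), the kinase gene Jak1 and Arhgap24 (a GTPase-activating protein). Antxr2 was at 2.68 and 2.01 CP10K against 11.6 CP10K, but irradiated 3, outside the fit, had 13.2 CP10K. Arhgap24 had the same order, with 16.3 CP10K in irradiated 3 against 14.6 CP10K in control 3. For Jak1, 45 of the 61 UMIs of control 3 came from 1 cell.

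Apoe alone of the 10 kept the groups apart over 7 tumors, at 0.794, 0.933, 0.654 and 0.335 CP10K with irradiation and 1.11, 1.44 and 2.69 CP10K without (log2 fold change -1.36, SE 0.47, adjusted p = 0.962). Only the controls reached the level of the filter on low counts in the fit over 7 tumors. Apoe is also a macrophage gene, at a mean of 123 CP10K in C1q macrophages. Beside it, the summed level of the 13 macrophage genes overlapped between the groups, and its part in the Apoe values was not tested.

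No gene passed as higher. Groups that do not overlap are common where few tumors are compared, in 72.8% of genes tested in the 3 tumors and 6.32% in the 7. Of the latter 3.51% were lower and 2.81% higher with irradiation. In the 3 tumors the 10 genes with the smallest p among those higher and apart were Cbx3, Ssu72, Ndufa11, Arsb, Hif1a, Gpr141, Ssh2, Tubb5, S100a10 and Pals2, with log2 fold changes of 1.28 to 2.94 that did not pass (adjusted p 0.127 to 0.292).

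Over all 7 tumors Mgl2, the lectin that also led the members, came first among genes higher with irradiation, without passing. It was at 7.40, 4.32, 7.36 and 4.86 CP10K in irradiated tumors 1 to 4 and 3.18, 0.825 and 2.79 CP10K in the controls, and each irradiated tumor lay above each control. The log2 fold change was 1.34 (SE 0.39, adjusted p = 0.962). Members with Flt3 alone, of which 15% had Mgl2, numbered 2, 0, 2 and 5 in irradiated tumors 1 to 4 and 3, 3 and 5 in the controls, and the part of this makeup in the Mgl2 values was not tested.

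Dab2, an endocytic adaptor, and Pid1 were apart in the same way, at 2.78 to 4.32 against 1.44 to 1.92 CP10K and at 7.93 to 15.9 against 5.57 to 6.80 CP10K. The metallothionein gene Mt1 was at 1.09 to 4.20 against 0.413 to 0.724 CP10K, and reached the filter on low counts only in irradiated tumors. The remaining genes named for this direction, Ambra1, Snx10, Rpl15, Ckb, Ssh2 and Bin2, had log2 fold changes of 0.58 to 1.13, each with adjusted p = 0.962.

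Among genes lower with irradiation that did not pass over 7 tumors, Rel, which encodes the NF-kB subunit c-Rel, was at 6.85, 2.45, 8.50 and 4.75 CP10K against 9.02, 17.3 and 10.4 CP10K. Slc7a1, a transporter of cationic amino acids, was at 0.117 to 0.844 against 1.24 to 2.37 CP10K, and reached the filter on low counts only in controls. The kinase gene Braf was at 1.40 to 1.89 against 2.88 to 4.55 CP10K. Tsc22d2, Crlf3, Esyt2, Cdk17 and Fgl2 had log2 fold changes of -1.40 to -1.18, and adjusted p was 0.962 for all of these genes.

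**Figure D4:**
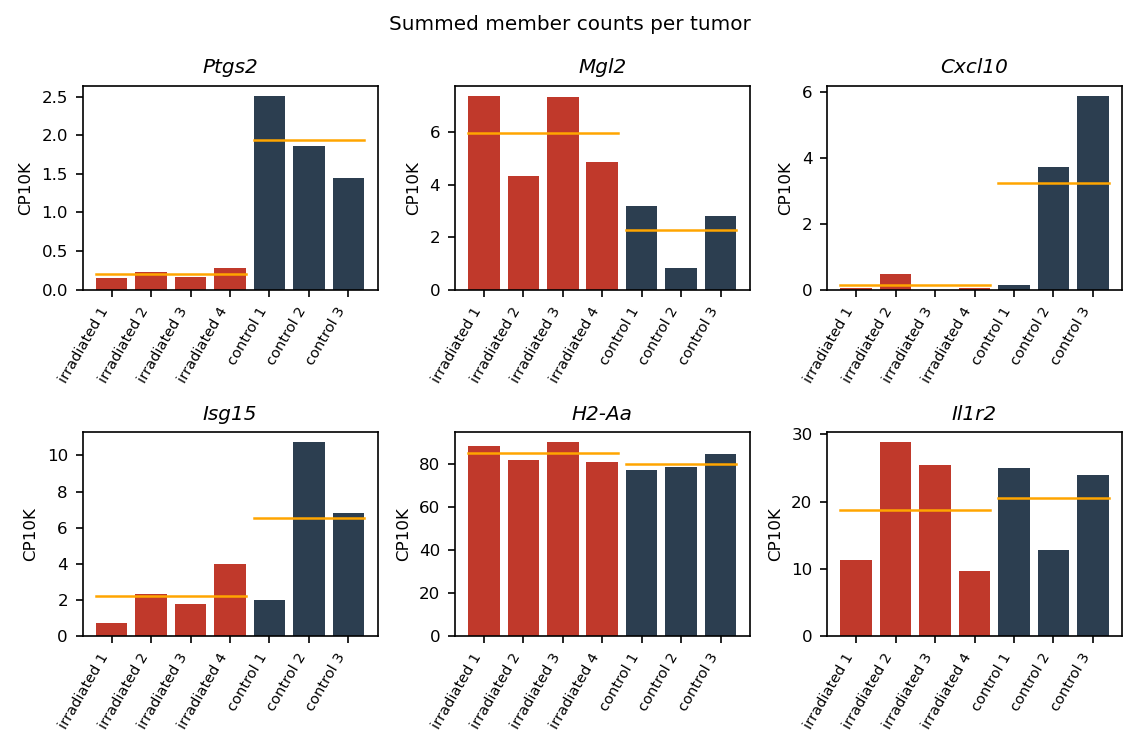
CP10K of 6 genes summed over the members of each tumor, with irradiated tumors in red, controls dark and group means as orange lines. Ptgs2 is at most 0.279 CP10K in irradiated and at least 1.45 CP10K in control tumors, Mgl2 lies higher in every irradiated tumor, and Cxcl10, Isg15, H2-Aa and Il1r2 overlap between the groups.

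Gene lists were described by counts and medians beside all genes tested, whose median log2 fold change was 0.06 in the 3 tumors and 0.01 in the 7. Of the 13 class II genes, 10 outside the rule were tested in the 3 tumors and 9 in the 7, 7 of them higher in each, with medians of 0.26 and 0.18 and none past the threshold. The 7-tumor median was 0.11 without irradiated 2. H2-Oa and H2-DMb1 had the largest fold changes of these in the 3 tumors, at 0.61 and 0.45. Of the 16 class I genes, 11 of 15 and 9 of 12 were higher, with medians of 0.15 and 0.15. The 7-tumor median was 0.01 with 6 of 12 lower without irradiated 4, and ran from 0.08 to 0.25 without each other tumor. It was -0.004 with 7 of 12 lower under the replicate block. B2m, the shared light chain of class I, was at 10.7, 12.6, 14.7 and 12.6 CP10K against 9.53, 7.63 and 11.6 CP10K, and H2-D1 at 8.34 to 14.8 against 8.28 to 12.6 CP10K. Psme2, a proteasome activator, and Pdia3, of the peptide-loading complex, had the largest fold changes in the 3 tumors, at 1.31 and 1.10. None of the class I genes passed.

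The chemokine and receptor list had 12 of 18 genes tested in the 3 tumors, 10 of them (83.3%) lower, against 46.7% of all genes. Cxcl10 and Cxcl2 were among these 10, each on counts of which 51 UMIs came from 1 cell of control 3. Both entered the fit through that tumor alone. In the 7 tumors 6 were tested, 4 were lower and none passed. Ccl4, an attractant of T cells and monocytes, ranged from 0 to 6.65 CP10K in irradiated and from 0.370 to 21.9 CP10K in control tumors. Ccl17 was found in 9 members, and Cxcl9 in 5.

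Costimulatory and checkpoint ligands were lower in 5 of 7 genes tested in the 3 tumors and 3 of 5 in the 7, and Cd86 had a log2 fold change of -1.06 (adjusted p = 0.299) and -0.64 (adjusted p = 0.962). Of lectins and pattern receptors, 5 of 11 and 3 of 5 were higher, and Mgl2 and Clec4n averaged 4.39 and 2.21 CP10K. Clec4a3 and Myd88 had the largest fold changes in the 3 tumors, at -1.71 and -1.21. Of the cytokines, Il1b, Tnf and Tgfb1 were tested in the 3 tumors, 2 of them higher.

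Of the dendritic cell transcription factors, 8 of 13 and 6 of 11 were higher. Zeb2 and Spi1 averaged 6.97 and 4.91 CP10K. Irf8 was at 0.248, 0.350, 0.327 and 0.727 CP10K against 0.517, 1.24 and 2.17 CP10K (log2 fold change -2.13 in the 3 tumors, adjusted p = 0.159), and Id2 at 3.38 to 6.06 against 1.96 to 3.55 CP10K. Growth factor and cytokine receptors were higher in 6 of 14 and 5 of 9, with Ifngr1 and Ifnar2, receptor genes for type II and type I interferon, found in 62 and 64 members. Tgfbr1 and Il4ra had the largest fold changes there, at 0.85 and 0.71.

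Of the p53 targets, 1 of 4 and 1 of 3 tested were higher. Cdkn1a, the cell cycle inhibitor that p53 induces, was at 2.78, 7.23, 2.94 and 1.73 CP10K against 3.99, 3.51 and 3.93 CP10K, Btg2 at 8.50 to 10.1 against 5.76 to 15.9 CP10K, and Mdm2 at 0.199 to 2.10 against 0.591 to 1.03 CP10K. Irradiated and control values of these genes overlapped. All 7 cell cycle genes tested in the 3 tumors were higher, but 6 of them were at 0 in control 3, and in the 7 tumors 1 of 2 was higher. Stmn1, a regulator of microtubules in dividing cells, was at 0 in control 3 and at 0.335 to 3.15 CP10K in the irradiated tumors.

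Dissociation stress genes were higher in 12 of 19 and 9 of 17. Their summed level was 115, 160, 98.4 and 140 CP10K in irradiated tumors 1 to 4 and 89.3, 177 and 119 CP10K in the controls. Hspa8 and Junb averaged 19.9 and 14.0 CP10K, and Klf2 and Ier3 had the largest fold changes in the 3 tumors, at 1.15 and 0.98. Of the type II interferon list 3 of 6 were higher in the 3 tumors. Cxcl10 was lower there, with 51 of its 57 UMIs in control 3 from 1 cell. In the 7 tumors 1 gene of the list was tested, which was higher and did not pass.

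Type I interferon genes were mostly lower with irradiation in these cells, and none passed the test. In the 3 tumors 31 of 40 genes were tested, of which 23 (74.2%) were lower with a median of -0.71, against 46.7% of all genes. In the 7 tumors 18 were tested and 15 (83.3%) were lower with a median of -0.67, against 48.6% of all genes. Single tumors moved the 7-tumor median, to -0.25 without control 2, -0.39 without irradiated 1, -1.09 without irradiated 4 and -1.08 without control 1. With equal cell numbers it was -0.07, with 3 of 6 genes lower. In the 3 tumors the median was 0.53, with 9 of 27 lower, when members needed 3 UMIs of Flt3 and Cd209a. That rule also drops the control 3 cell described below, which had 2 such UMIs, so it is no separate check from leaving out that cell. The summed list was at 22.2, 41.4, 25.3 and 60.4 CP10K in irradiated tumors 1 to 4 and 32.4, 88.3 and 64.9 CP10K in controls 1 to 3. Controls 2 and 3 were above every irradiated tumor, and control 1 was below irradiated 2 and 4.

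The technical sets divided this pattern. In set 1, irradiated 1 at 22.2 CP10K lay below controls 2 and 3, and in set 2, irradiated 2, 3 and 4 lay on both sides of control 1 at 32.4 CP10K. When the set entered the fit as a covariate, the median was -0.64 and 20 of 23 genes were lower. The list was also concentrated in few cells. The highest member was at 107, 250, 49.2 and 178 CP10K in irradiated tumors 1 to 4 and at 119 and 291 CP10K in controls 1 and 2. Another member of control 2 was at 137 CP10K, and no fit left out the high members of that tumor. The highest member of control 3 was at 398 CP10K, the cell that held 51 Cxcl10 UMIs, while the median member of that tumor was at 24.4 CP10K. Without that cell the median of the list was 0.52 with 9 of 27 genes lower in the 3 tumors, the opposite direction, and -0.37 with 10 of 13 lower in the 7.

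Member medians of the summed list were 15, 16.7, 25.6 and 63.1 CP10K in irradiated tumors 1 to 4 and 18.6, 39.6 and 24.4 CP10K in the controls. By this measure irradiated 4 was the highest of all tumors. Isg15, a ubiquitin-like interferon-induced protein, was at 0.745, 2.33, 1.80 and 3.97 CP10K against 2.00, 10.7 and 6.82 CP10K (log2 fold change -1.48, SE 0.58, adjusted p = 0.962 over 7 tumors). Ifi27l2a was at 1.99 to 6.87 against 1.86 to 6.80 CP10K. Isg20 and Ifit3 had the largest fold changes in the 3 tumors, at -2.65 and -1.80, and did not pass.

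**Figure D5:**
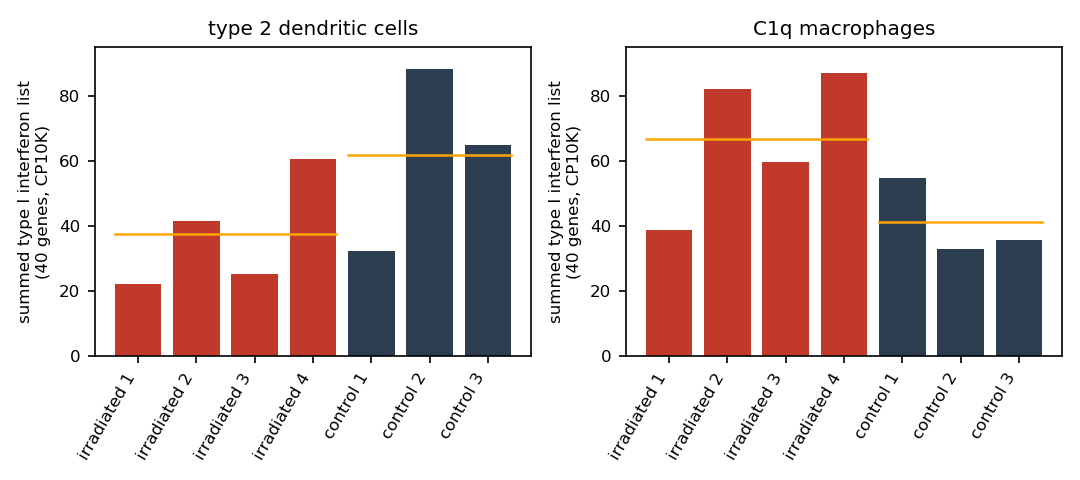
Summed CP10K of the 40 type I interferon genes in the type 2 dendritic cells (left) and C1q macrophages (right) of each tumor, with irradiated tumors in red, controls dark and group means as orange lines. In type 2 dendritic cells controls 2 and 3 are highest (88.3 and 64.9 CP10K), and in C1q macrophages irradiated 4 and 2 are (86.9 and 82.0 CP10K).

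The effect of irradiation was set against that in C1q macrophages of the same tumors by an interaction term, with the tumor as a block. In all 7 tumors 6 of 12347 genes differed (percent called 0.0486), 5 with the lower effect in type 2 dendritic cells (percent called 0.0405) and 1 with the higher (percent called 0.0081). The count was 28 without control 1 and 3 without control 2. In the 3 tumors with at least 10 members there were 21 of 12539 (percent called 0.167), 20 of them lower (percent called 0.16) and 1 higher (percent called 0.00798). The genes with the smallest p there were Cxcl10, Cxcl2, Isg15, Thbs1 and Xylt1, and in the 7 tumors Isg15, Ptgs2, Tmtc2, Ank2 and Cxcl11.

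Isg15 (chromosome 4, 156199424 to 156200818) was named by both fits. In C1q macrophages it was at 1.96, 6.86, 3.86 and 7.54 CP10K in irradiated tumors 1 to 4 and 3.51, 2.09 and 2.25 CP10K in the controls. The ratio of its level in type 2 dendritic cells to that in macrophages was 0.380, 0.340, 0.465 and 0.527 in the irradiated tumors and 0.569, 5.13 and 3.04 in the controls, and the groups did not overlap, though irradiated 4 and control 1 were close. The log2 difference of the effects was -2.31 (SE 0.39, adjusted p = 2.86e-05) over 7 tumors and -2.66 in the 3. Without control 2 it was -1.72 over the other 6 tumors and no longer passed (adjusted p = 0.105). Without the control 3 cell named above it was -1.72 over 7 tumors (adjusted p = 0.0339) and -0.91 in the 3 (adjusted p = 1).

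Of the 40 type I interferon genes, 39 had the lower effect in type 2 dendritic cells over 7 tumors with a median log2 difference of -1.37, against 45.8% of all genes and a median of 0.08, and only Isg15 passed. Leaving out genes at 0 in a group, 38 of 39 were lower with a median of -1.35, against 49.5% and 0.01 for all genes. The summed list in type 2 dendritic cells over that in macrophages was 0.574, 0.505, 0.424 and 0.695 in irradiated tumors 1 to 4 and 0.591, 2.68 and 1.83 in the controls, so that control 1 lay inside the irradiated range. The median was -0.85 without control 2 and -2.16 without control 1. Without the control 3 cell the median was -0.91, with 39 of 40 genes still lower. In the 3 tumors, leaving it out took the count from 40 to 23 of 40 and the median from -1.34 to -0.21, against 0.35 for all genes.

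Promoters of Isg15 and Ifit3 are shown as interferon genes named above. Capitals mark GAAA, any 2 bases and GAAA again, or the reverse complement, the repeat of interferon-stimulated response elements. In the same RefSeq windows Isg15 (chr4:156200769-156201068, - strand) has 3 overlapping matches that begin at -78, -72 and -66, and Ifit3 (chr19:34583279-34583578, + strand) has 2 at -156 and -122. Ifit3 has a close copy, Ifit3b, with which reads could be shared.
Isg15: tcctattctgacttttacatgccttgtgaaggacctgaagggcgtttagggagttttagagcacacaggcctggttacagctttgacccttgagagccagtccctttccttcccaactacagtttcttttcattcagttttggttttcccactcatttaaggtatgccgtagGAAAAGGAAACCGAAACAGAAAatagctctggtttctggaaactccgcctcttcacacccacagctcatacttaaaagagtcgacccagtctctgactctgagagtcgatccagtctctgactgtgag
Ifit3: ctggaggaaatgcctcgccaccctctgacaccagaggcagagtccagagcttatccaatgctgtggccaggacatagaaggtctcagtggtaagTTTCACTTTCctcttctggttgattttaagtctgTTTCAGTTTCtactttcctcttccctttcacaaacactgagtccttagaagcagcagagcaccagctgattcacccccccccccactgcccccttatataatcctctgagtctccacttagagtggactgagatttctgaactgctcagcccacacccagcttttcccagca

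On either strand the motif was found in 17 of 36 windows of the list, of 15 among 30 genes matched by symbol, and in 3.44% of all 32851 windows. It is a run of letters and not a measured site.

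Ptgs2 had a log2 difference of effects of -3.33 (SE 0.61, adjusted p = 0.000256) over 7 tumors. In macrophages it was at 0.416 to 0.621 CP10K in irradiated and 0.346 to 0.644 CP10K in control tumors, and its ratio of type 2 dendritic cells to macrophages was 0.320 to 0.450 against 2.25 to 5.48. The call held without each tumor in turn, with adjusted p = 0.000346 to 0.0166, but not without the control 1 cell that held most of its UMIs (-2.56, adjusted p = 0.115).

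The remaining differences rested on few UMIs. Ank2, which encodes ankyrin B, had 12, 20, 7 and 15 UMIs in the members of irradiated tumors 1 to 4 and 4, 0 and 0 in the controls (3.77, SE 0.78, adjusted p = 0.0062). Tmtc2 had 0, 0, 0 and 1 UMIs against 9, 17 and 11 (-5.55, SE 1.10, adjusted p = 0.00209). Cxcl11, an interferon-induced chemokine, had 0 UMIs in all irradiated tumors and 7 in 2 control members, so that its fitted value of -12.0 depends on the prior count and is no bound (adjusted p = 0.0223). The Ank2 call ended without irradiated 2 or 4 or control 2 or 3 (adjusted p up to 0.342), the Tmtc2 call without irradiated 1 or control 2 (up to 0.176), and the Cxcl11 call without irradiated 2 or 4 or control 2 or 3 (up to 1) and without the control 3 cell with most Cxcl10 UMIs (0.178). Thbs1, named in the 3 tumors, had 12 UMIs there, all in 1 cell of control 3.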

How the data were processed

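Cells of 7 tumors, 4 irradiated and 3 control, were measured by 3′ droplet single-cell RNA sequencing, with 1 library per tumor. The authors deposited filtered matrices of raw UMI counts per gene and called cell, aligned to mm10 with Cell Ranger (8.0.0 in the file headers); the submitters' notes also name Seurat 4.4. Groups came from the sample labels. The labels do not tie the replicate numbers to shared animals or days.

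The cell rule was applied to the deposited counts with Python 3.11.15 and scanpy 1.11.5. The members and gene lists, and the rule itself, were chosen with earlier results of these data known. Shares were compared over tumors by a two-sided exact permutation test. Counts were summed over members per tumor and tested with edgeR 4.0.16 in R 4.3.3 (quasi-likelihood F test, filterByExpr, TMM, Benjamini-Hochberg adjustment over all genes tested, threshold 0.05). The fit was set to take tumors with at least 10 members, and only 3 tumors reached that number. The fit over 7 tumors was added after the data were seen. The SE beside a log2 fold change or difference is its absolute value divided by the square root of F. It is not a separately fitted standard error. The interaction with C1q macrophages used the tumor as a block, and the one with type 1 cells was not run, since no tumor held 10 of them.

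Cells were thinned to 3000 UMIs with a fixed seed. Named genes were those past the threshold (up to 10 in each direction, filled by genes with the smallest p among those at 1 CP10K or more whose groups did not overlap), 4 genes of each function list by level and fold change, 15 leading genes, the marker lists, and 5 interaction genes by p. Features sharing a symbol (52 of 33696) and close paralogs can share reads. Alternatives were another normalization, DESeq2 1.42.0, other count filters, stricter rules for members, doublet removal, equal cell numbers, a technical set term, a replicate block and leaving out each tumor or 1 cell. The scripts were tested on simulated counts. Some items named by the rule are not reported here.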

Additional observations from a re-analysis of the deposited data

Results flagged for a closer look

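In irradiated tumors, 9 of the 45 groups of values tested held 1 tumor far from the other 3 by Dixon's criterion. Nearly all of these groups are genes picked by their values in these data, so the chance rate of about 1 in 20 does not apply. For Tmtc2 and Thbs1, 1 UMI against 0 in the other 3 tumors fixes the outcome. Irradiated 3 stood high for Pals2 (2.78 CP10K), Dst (4.58 CP10K), Arhgap24 (16.3 CP10K) and Cdk17 (1.47 CP10K), on 5 members. Irradiated 2 stood high for Cxcl10 (0.467 CP10K), Cxcl2 (2.33 CP10K), Mt1 (4.20 CP10K) and Thbs1 (0.117 CP10K), on 4 members, and 24 of its 36 Mt1 UMIs came from 1 cell. Irradiated 4 had the only Tmtc2 UMI of the irradiated tumors (0.0559 CP10K).

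The interaction of irradiation with cell class, type 2 dendritic cells against C1q macrophages, passed for the 5 genes named in each fit. The fit of 3 tumors holds 1 control tumor, and over 7 tumors Cxcl10, Cxcl2 and Xylt1 (adjusted p = 0.997) and Thbs1 (0.177) did not pass. Isg15 in the 3 tumors did not pass without 1 cell (adjusted p = 1). In the 3 tumors the log2 difference was -7.86 for Cxcl10, -4.51 for Cxcl2, -2.66 for Isg15 and -2.27 for Xylt1, and the fitted -12.2 for Thbs1 rests on 1 cell. In the 7 tumors it was -2.31 for Isg15, -3.33 for Ptgs2, -5.55 for Tmtc2 and 3.77 for Ank2, and the fitted -12.0 for Cxcl11 rests on 7 UMIs. The part that single cells, depth and the technical sets had in these differences was not tested beyond the values given above.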

How the results depend on the processing

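The irradiated-minus-control difference in the share of retained cells kept its direction under all 17 alternatives, from 0.0706 to 0.152 percentage points over tumors left out. The difference in the share among dendritic cells had no stable sign. Over tumors left out it ran from -3.18 to 4.34 percentage points, and it fell below 0 without irradiated 1 (-3.18), irradiated 3 (-0.554) or control 3 (-1.92).

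The count of genes called in 3 tumors, 10, became 2 with DESeq2, 0 when at least 10 UMIs in at least 3 tumors were required, 36 with members of at least 3 UMIs of Flt3 and Cd209a, 3 with equal cell numbers and 1 (Ptgs2, not among the 10) in all 7 tumors. The count of 1 in 7 tumors became 2 with DESeq2 and 4 with every gene that had a UMI. It was 0 with at least 10 UMIs in at least 3 tumors, with at least 3 UMIs of Flt3 and Cd209a, with equal cell numbers, and without the cell holding most Ptgs2 or most Cxcl10 UMIs. Over tumors left out it was 0 to 1, and the gene called without control 1 was not Ptgs2. The interaction count of 21 in 3 tumors became 13 without the cell with most Cxcl10 UMIs and 6 in all 7 tumors, and the count of 6 ran from 3 to 28 over tumors left out. The cause of these shifts was not tested.

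With the replicate number as a block, 0 genes were called in 7 tumors and the difference in share was 0.0706 percentage points (exact p = 0.5, smallest possible 0.25). Correlations between samples of the same number were -0.140, 0.0115 and 0.105, and those of the other pairs ran from -0.131 to 0.166. With so few tumors these values cannot show whether a number stands for shared animals or days. In the 3-tumor fit, the block, a technical set term and leaving out a tumor could not be fitted. Precision was limited by depth (48470 to 201434 UMIs per tumor) and by the number of members (4 to 24). Thinning to 3000 UMIs moved the share of members with a UMI for 9 of the 11 markers of type 2 cells, such as Flt3 to 31.5%.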
